A study of Mus musculus with 24 samples.

Results

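Chromatin accessibility was examined at 8 genes for transcription factors of the trophoblast lineage, Cdx2, Elf5, Tfap2c, Gata3, Gata2, Hand1, Tead4 and Ascl2. The members are the intervals of 2 deposited tables that overlap the gene bodies extended by 20 kb on each side (GRCm38, the build called mm10 in the submitters' processing notes). They came to 153 of 299780 intervals in the Ctrl table and 148 of 272268 in the Paused table, 301 of 572048 in all, and each was 201 bases wide. Tead4, with the longest window, held 46 and 43 intervals in the 2 tables, and Ascl2 held 8 and 9, while the other genes held 12 to 22. A filter on low values (at least 4 libraries with 10 or more normalized reads) left 149 and 144 members for testing.

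The cells were the mouse embryonic stem cell line E14, grown on gelatin in medium with serum and LIF. Wild type (WT) cells were compared with 2 lines labelled Smad2 knockout, Smad2_KO1 and Smad2_KO2, each kept under control conditions (Ctrl) or held for 12 h in 200 nM INK128, an inhibitor of the growth kinase mTOR (Paused). Each of the 6 groups had 4 ATAC-seq libraries of 50000 live cells, 24 in all. ATAC-seq cuts open chromatin with the transposase Tn5, so the reads in an interval measure how accessible it was. INK128 brings embryonic stem cells into a reversible state that resembles embryonic diapause, and Smad2 carries signals of the Nodal and Activin branch of the TGF-beta family from the membrane to the nucleus. The knockout lines are called clones here, and neither how they were made nor whether the 4 libraries of a group came from separate cultures is given in the sources used here, so p-values measure the spread between these libraries, which may be technical. In bulk libraries, fewer cells with an open site and a site less open in each cell cannot be told apart.

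The trophoblast is the first lineage to leave the pluripotent cells of the mouse embryo, and it forms the fetal part of the placenta. In outer cells of the morula, TEAD4 with its coactivator YAP activates Cdx2 and Gata3, CDX2 in turn represses the pluripotency factor gene Pou5f1, and ELF5, TFAP2C and EOMES maintain trophoblast stem cells. GATA2, HAND1 and ASCL2 act later, in giant cells and in the spongiotrophoblast. Embryonic stem cells rarely enter this lineage, and DNA methylation of the Elf5 promoter is a known part of that barrier.

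RefSeq promoters (250 bases before to 50 after the start, GRCm38.p6) were matched for 5 of the 8 genes, with 7 starts in all. Sequences are shown for 3 of them because a deposited interval reached into the promoter, and capitals mark the bases inside that interval. The Ascl2 promoter (chr7:142969215-142969514, minus strand) had 201 of 300 bases inside an interval in Ctrl and 0 in Paused, the downstream Gata2 promoter (chr6:88198414-88198713, plus strand) 158 in Ctrl and 160 in Paused, and the first Elf5 promoter (chr2:103411848-103412147, plus strand) 31 in Ctrl and 50 in Paused. The 2 tables hold different intervals, so promoter bases outside them have no value here and were not shown to be closed. In Paused the nearest Ascl2 interval lay 276 bases from the start.
Ascl2, Ctrl interval: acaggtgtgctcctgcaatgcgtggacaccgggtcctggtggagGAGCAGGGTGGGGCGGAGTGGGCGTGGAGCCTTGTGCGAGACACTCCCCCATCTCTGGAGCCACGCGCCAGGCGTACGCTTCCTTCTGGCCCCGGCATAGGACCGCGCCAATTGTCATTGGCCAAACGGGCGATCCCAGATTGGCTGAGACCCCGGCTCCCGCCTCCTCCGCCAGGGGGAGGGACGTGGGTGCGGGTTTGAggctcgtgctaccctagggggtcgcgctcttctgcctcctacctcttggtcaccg
Gata2, downstream start, Ctrl interval: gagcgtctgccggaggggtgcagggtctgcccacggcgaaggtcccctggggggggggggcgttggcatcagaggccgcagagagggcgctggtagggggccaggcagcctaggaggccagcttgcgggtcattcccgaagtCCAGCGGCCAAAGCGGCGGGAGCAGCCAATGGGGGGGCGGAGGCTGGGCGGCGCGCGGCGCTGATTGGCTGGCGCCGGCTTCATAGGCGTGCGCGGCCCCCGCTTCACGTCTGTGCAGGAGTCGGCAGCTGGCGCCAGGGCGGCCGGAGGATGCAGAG
Elf5, first start, Paused interval: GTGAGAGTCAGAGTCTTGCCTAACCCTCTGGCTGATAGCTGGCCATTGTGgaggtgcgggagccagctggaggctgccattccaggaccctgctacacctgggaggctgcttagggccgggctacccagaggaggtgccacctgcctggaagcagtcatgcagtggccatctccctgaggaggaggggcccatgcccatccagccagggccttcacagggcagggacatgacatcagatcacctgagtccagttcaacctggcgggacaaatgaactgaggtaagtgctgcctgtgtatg
The Ascl2 and Gata2 promoters held 23 and 29 CpG dinucleotides, and the Elf5 promoter held 3. The upstream Gata2 start, the matched Cdx2 and Gata3 starts and the second Elf5 start had no interval over their promoter bases in either table. The TEAD motif GGAATG, searched on both strands, was present in 2 of the 7 promoters (first Elf5 start and downstream Gata2 start) and in 14.7% of the 32851 mouse promoters of the same length. The motif CAGACA of SMAD proteins was present at 3 of the 7 (Gata3, Cdx2 and the second Elf5 start) and in 21.0% of all, and the GATA motif AGATAA at 0 of the 7 and in 11.2% of all. The TFAP2 motif GCCNNNGGC was present at 3 (Gata3, Cdx2 and the downstream Gata2 start; 16.6% of all), the short ETS motif GGAAG at 3 (first Elf5 start, Cdx2 and Ascl2; 71.4% of all) and the FOXH1 motif AATCCAC at 0 (2.49% of all).

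Libraries held 11772458 to 16525762 reads in the Ctrl intervals and 11456986 to 20007829 in the Paused intervals, and in Paused the 4 Smad2_KO1 libraries were each deeper than the 4 WT libraries. No member interval, and none of all intervals tested, passed between Smad2_KO1 and Smad2_KO2 (0.0% of all in both tables, limma with Benjamini-Hochberg adjustment). At an unadjusted p under 0.05, 7 members in Ctrl and 5 in Paused differed between the clones, 4.70% and 3.47% of those tested, beside 3.28% and 1.97% of all intervals. These shares are below the 0.05 that such a threshold passes by chance where nothing differs. The absence of calls therefore does not show that the clones are alike. Replicate 2 of Smad2_KO1 and replicate 2 of Smad2_KO2 in Paused showed no detectable excess over sampling noise (chi-square per degree of freedom 1.001, p = 0.32). The other same-numbered Paused clone pairs had values of 1.026 to 1.074. Differently numbered Paused clone pairs had 1.10 to 1.49, and pairs within a clone 1.18 to 1.39 (Smad2_KO1) and 1.11 to 1.48 (Smad2_KO2). In Ctrl same-numbered clone pairs had 1.02 to 1.27 and differently numbered ones 1.12 to 1.53. Why same-numbered clone libraries were more alike in Paused was not tested. The clones may therefore not be independent of each other, and counts are also given with same-numbered clone libraries averaged. The strongest interval in or within 1000 bases of each of the 7 pluripotency genes searched had a mean of 44.9 (Pou5f1) to 515 (Zfp42) normalized reads in Ctrl, and the same for the 3 neural, 4 fibroblast and 5 primitive endoderm genes was 126 to 309, 50.5 to 174 and 113 to 259, so genes of other lineages held open intervals too and the labelled cell type was not told from these intervals. The labelled knockouts were not checked at the targeted gene here, and both are compared with the same WT libraries. WT libraries differed more from each other (median chi-square per degree of freedom 1.57 in Ctrl and 1.61 in Paused) than libraries of 1 clone (1.19 to 1.29). The fit gave the 3 lines 1 shared spread. The test between the clones may thus be too strict, and standard errors against WT may be too small.

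Few of the trophoblast factor intervals differed between Smad2 knockout and WT. An interval is called here when both clones passed against WT at an adjusted p under 0.05 with the same sign. In Ctrl 7 of 149 members were called (4.70%, beside 7.15% of all intervals tested), 3 higher intervals at Gata2, 3 higher at Tead4 and 1 lower at Elf5. In Paused 14 of 144 were called (9.72%, beside 13.9% of all), of which 9 were higher (3 at Gata2, 3 at Tead4, 2 at Gata3 and 1 at Elf5) and 5 lower (3 at Tfap2c, 1 at Cdx2 and 1 at Elf5). No interval was called at Hand1 or Ascl2 in either table, or at Cdx2, Tfap2c or Gata3 in Ctrl. Higher calls made up 4.03% and 6.25% of the members, beside 3.95% and 9.01% of all intervals, and lower calls 0.671% and 3.47%, beside 3.2% and 4.92%.

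The median log2 fold change (knockout minus WT, mean of the clones, on the log2 scale of normalized reads + 1) was 0.10 over the members and 0.08 over all intervals in Ctrl, and 0.14 and 0.12 in Paused. DESeq2's size factors in place of the authors' scaling moved the median of all intervals to 0.01 in Ctrl and 0.02 in Paused, and with them the members' calls split into 5 higher and 3 lower in Ctrl and 7 higher and 11 lower in Paused. Of the members' calls 62.5% in Ctrl and 38.9% in Paused were then higher, beside 37.4% and 41.0% of the calls over all intervals. With the authors' scaling these shares were 85.7% and 64.3%, beside 55.2% and 64.7%. Library totals gave 12 higher and 5 lower in Paused, 70.6% higher, beside 71.3% over all intervals. With same-numbered clone libraries averaged, 18 members (12.1%, beside 13.0% of all) were called in Ctrl and 25 (17.4%, beside 19.8%) in Paused, among them each of the 7 and 14. That fit asks for 1 test of the averaged libraries, a laxer rule than passing in each clone. More calls, and the keeping of each call in both clones, were thus likely in advance and do not show that the clones are independent. Ctrl calls fell to 4 without Smad2_KO1 replicate 3 and Paused calls to 9 without Smad2_KO2 replicate 2, and DESeq2 on the recovered reads called 1 in Ctrl and 10 in Paused.

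**Figure D1:**
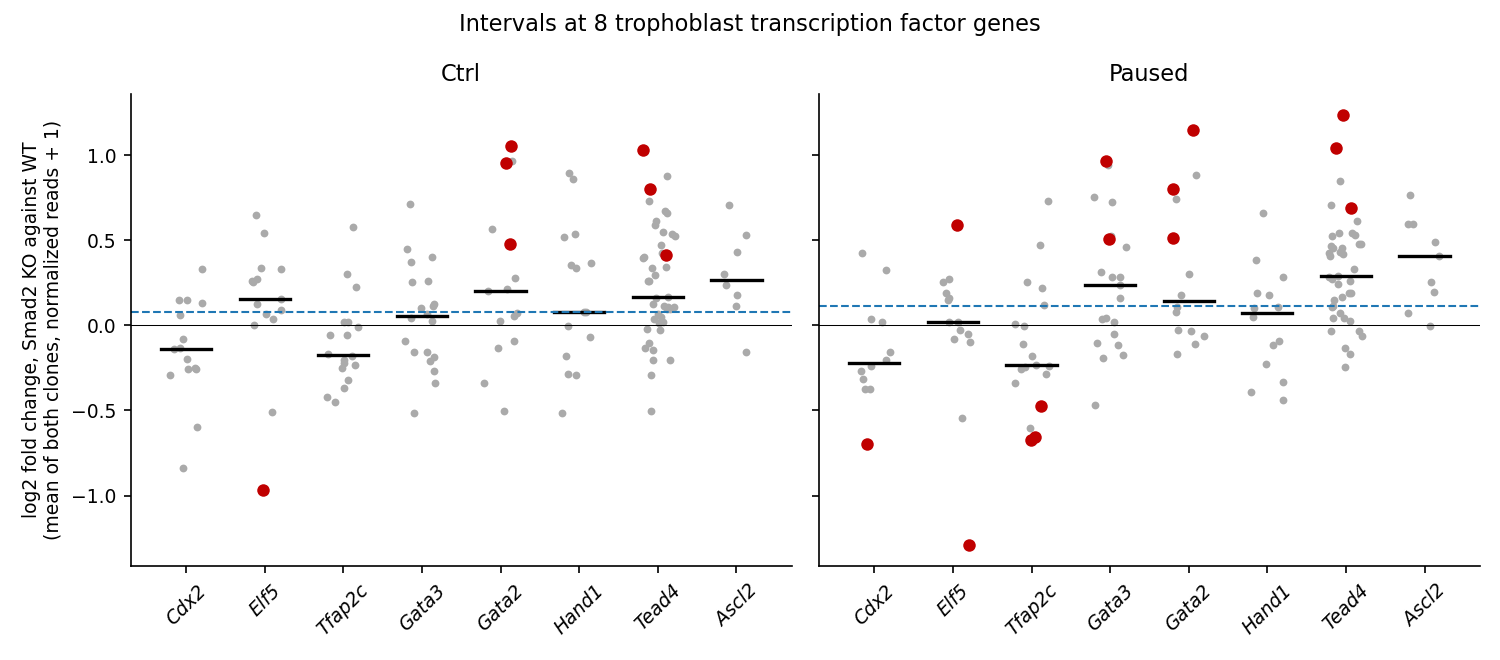
Each point is 1 tested interval, placed by gene (horizontal axis) and by the log2 fold change of Smad2 knockout against WT, mean of both clones (vertical axis), with Ctrl left and Paused right. Red points were called in both clones (7 and 14), black bars are gene medians and the dashed line is the median of all intervals tested (0.08 and 0.12). The bars of Cdx2 and Tfap2c lie below 0 in both panels.

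The genes differed in where their intervals lay on this scale. Tfap2c had the lowest median, -0.17 in Ctrl and -0.24 in Paused, and Cdx2 followed at -0.14 and -0.22. Of the Tfap2c intervals, 13 of 18 in Ctrl and 13 of 19 in Paused were below 0, and of the Cdx2 intervals 10 of 15 and 8 of 12. Both medians stayed below 0 under the 5 other scalings tried, from -0.25 to -0.16 in Ctrl and -0.34 to -0.20 in Paused for Tfap2c. Ascl2 had the highest medians, 0.27 and 0.41, followed in Paused by Tead4 at 0.29, and both stayed above 0 under each scaling. Loess offsets cut the Paused median of Ascl2 to 0.176, below that of Tead4 at 0.184. For Gata3 in Ctrl and for Elf5 and Hand1 in Paused the sign of the median depended on the scaling. No test was made of these medians.

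Summed over a whole window, Tfap2c held 1386 ± 73.9 normalized reads (SD, n = 4) in Ctrl WT, 1215 ± 28.3 in Smad2_KO1 and 1251 ± 50.9 in Smad2_KO2. In Paused the sums were 1543 ± 109, 1249 ± 77.4 and 1248 ± 107. In both tables the 8 knockout libraries lay below the 4 WT libraries. The Cdx2 window summed to 1164 ± 84.8, 1016 ± 19.7 and 973 ± 20.0 in Paused, again with no overlap, whereas in Ctrl the groups overlapped. The other 6 windows overlapped between knockout and WT in both tables. Strong intervals weigh most in such sums. The Tfap2c window's interval at the start of the predicted gene Gm36038 alone averaged 402 in Ctrl WT. In Paused it averaged 454 in WT, 327 in Smad2_KO1 and 329 in Smad2_KO2. All Paused intervals above 100 normalized reads had a median fold change of -0.13. How often the windows of other genes show no overlap was not counted.

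Tead4, the DNA-binding partner of YAP and the most upstream of the 8 factors, had its strongest interval inside the gene (chr6:128300406-128300606 in Ctrl, 128300409-128300609 in Paused). In Ctrl that interval held 226, 193, 227 and 278 normalized reads in WT, 268, 187, 245 and 244 in Smad2_KO1 and 225, 219, 201 and 222 in Smad2_KO2. Paused libraries held 372, 277, 244 and 422 in WT, 290 to 367 in the 8 knockout libraries, and the groups overlapped in both tables. The log2 fold changes were 0.03 ± 0.11 (SE) and -0.08 ± 0.11 in Ctrl, and 0.07 and -0.02 in Paused, with adjusted p from 0.68 to 0.933.

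The Tead4 intervals that were higher in both clones were mostly weak ones. The strongest of them, inside the gene at chr6:128280577-128280777 in Ctrl, held 120, 102, 86.5 and 96.0 normalized reads in WT, 141, 114, 129 and 143 in Smad2_KO1 and 128, 143, 129 and 146 in Smad2_KO2. One WT library lay above the lowest knockout library there, and the fold changes were 0.39 ± 0.12 and 0.44 ± 0.12 (adjusted p 0.0265 and 0.012). In Paused an interval 14.9 kb beyond the higher-coordinate end of the gene (chr6:128315721-128315921) held 25.2 to 52.9 in WT and 53.6 to 76.5 in the knockout libraries, with no overlap. Its fold changes were 0.68 ± 0.17 and 0.70 ± 0.17 (adjusted p 0.00469 and 0.00381), and of the alternatives only DESeq2 ended the call. The other 4 called intervals, all inside the gene, had WT means of 7.60 to 13.2 and fold changes of 0.80 to 1.26. Single libraries ended the calls at all of the Tead4 intervals called except that at 128315721 (adjusted p up to 0.153): WT replicate 1, 3 or 4, Smad2_KO1 replicate 1, 2, 3 or 4, or Smad2_KO2 replicate 1, 2, 3 or 4, with between 3 and 5 of these libraries at each interval. Without WT replicate 4 the mean fold change at the Paused interval at 128251516 went from 1.24 to 0.70. DESeq2 ended each of the 6 Tead4 calls, and the Ctrl call at 128280577 was also lost with size factors (adjusted p 0.0767), TMM and edgeR. TMM scaling per chromosome ended the 3 Ctrl calls and the Paused call at 128247921 (limma, adjusted p 0.0537 to 0.166).

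Cdx2 encodes the homeobox factor that specifies trophectoderm. Its strongest interval lay 1.5 kb beyond the gene's end (chr5:147299216-147299416 in Ctrl, 147299234-147299434 in Paused), about 7.9 kb past the start. In Ctrl it held 242 to 276 in WT and 216 to 284 in the knockout libraries (fold changes -0.03 ± 0.09 and -0.13 ± 0.09, adjusted p 0.864 and 0.401), and the groups overlapped. In Paused it held 328, 293, 323 and 326 in WT, 264, 276, 295 and 290 in Smad2_KO1 and 257, 270, 267 and 287 in Smad2_KO2. WT replicate 2 was the one WT library within the range of the knockout libraries there. Smad2_KO2 passed (-0.23 ± 0.09, adjusted p 0.0491) and Smad2_KO1 did not (-0.17 ± 0.09, adjusted p 0.147), while with size factors both did, at a mean fold change of -0.31 and adjusted p of at most 0.0285.

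One Cdx2 interval was called in both clones in Paused, 2.7 kb beyond the gene's end at chr5:147297966-147298166, where the predicted gene Gm35112 also starts. It held 83.1, 65.5, 48.5 and 49.0 in WT, 40.9, 46.2, 44.9 and 36.8 in Smad2_KO1 and 33.96, 29.2, 37.0 and 28.4 in Smad2_KO2, and the knockout libraries lay below WT. The fold changes were -0.50 ± 0.17 and -0.89 ± 0.17 (adjusted p 0.0351 and 0.000396). The call was lost without WT replicate 1, WT replicate 2, or Smad2_KO1 replicate 1, 3 or 4 (adjusted p up to 0.187). The matching Ctrl interval held 27.0 to 41.6 in WT and 21.6 to 41.1 in the knockout libraries and was not called (adjusted p 0.609 and 0.831). Nearest the start, an interval 215 bases inside the gene in Paused (chr5:147306834-147307034) held 133, 115, 89.5 and 125 in WT and 84.7 to 116 in the knockout libraries, and was not called (adjusted p 0.0611 and 0.26). No Ctrl interval lay within 500 bases of the start. The strongest Ctrl interval in or within 1000 bases of the gene (chr5:147305428-147305628) had means of 31.5 ± 9.09 in WT, 15.8 ± 3.81 in Smad2_KO1 and 19.5 ± 8.95 in Smad2_KO2. There Smad2_KO1 passed (-0.95 ± 0.25, adjusted p 0.00865) and Smad2_KO2 did not (-0.72, adjusted p 0.0538), so it was not called.

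Gata3, which drives trophectoderm genes alongside Cdx2, had the strongest interval of all members, 990 bases before its 1 matched start in Ctrl (chr2:9879590-9879790). That interval lay inside the gene body, which spans 9857078 to 9887953. It held 458, 434, 410 and 449 in WT, 489, 467, 529 and 491 in Smad2_KO1 and 431, 460, 419 and 477 in Smad2_KO2 in Ctrl. In Ctrl each Smad2_KO1 library was above WT, but neither clone passed (0.17 ± 0.08, adjusted p 0.149, and 0.03 ± 0.08, adjusted p 0.868). In Paused the same site held 543, 434, 536 and 542 in WT and 447 to 520 in the knockout libraries, with fold changes of -0.10 and -0.13 (adjusted p 0.4 and 0.252). Of 2 weaker intervals beyond the gene's end that were higher in Paused, the stronger (chr2:9852991-9853191) held 44.2 to 50.7 in WT and 48.9 to 83.1 in the knockout libraries, with fold changes of 0.51 ± 0.15 and 0.50 ± 0.15 (adjusted p 0.0158 and 0.0183). Both calls were lost with size factors and with DESeq2, and without Smad2_KO1 replicate 2 or 4 or Smad2_KO2 replicate 2 or 4 (adjusted p up to 0.0843 for the stronger). The weaker (chr2:9852282-9852482; 2.65 to 9.72 in WT, 9.00 to 15.0 in the knockout libraries) was also lost without WT replicate 2 or 4 or any other knockout library (adjusted p up to 0.174). No WT library reached 10 at the weaker interval, so the knockout libraries alone carried it through the filter on low values.

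Tfap2c encodes AP-2 gamma, which is needed to maintain trophoblast stem cells and is also made in germ cells. Of its 19 tested intervals, 3 intervals were lower in both clones in Paused. The strongest interval in the window lay 18.8 kb beyond the higher-coordinate end of Tfap2c in Paused (chr2:172577393-172577593), where the predicted gene Gm36038 starts. It held 467, 471, 380 and 497 in WT, 353, 267, 300 and 388 in Smad2_KO1 and 338, 247, 365 and 364 in Smad2_KO2. WT replicate 3 was the one WT library within the knockout range. The fold changes were -0.48 ± 0.11 and -0.47 ± 0.11 (adjusted p 0.00147 and 0.00163), and the call stood under every alternative run. The Ctrl interval at this site (chr2:172577223-172577423) held 436, 353, 394 and 424 in WT and 290 to 391 in the knockout libraries, with fold changes of -0.24 ± 0.09 and -0.12 ± 0.09 (adjusted p 0.0771 and 0.441).

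The other pair of lower intervals flanked the gene. At chr2:172529772-172529972, 15.7 kb before its lower-coordinate end, Paused WT held 111, 82.7, 68.0 and 90.0, Smad2_KO1 58.9, 37.1, 51.8 and 70.5 and Smad2_KO2 60.9, 48.0, 55.0 and 55.8 (fold changes -0.69 ± 0.16 and -0.65 ± 0.16, adjusted p 0.00235 and 0.00404). At chr2:172559055-172559255, 0.43 kb beyond its higher-coordinate end, Paused WT held 109, 78.4, 87.4 and 64.9, Smad2_KO1 64.6, 44.4, 51.0 and 50.6 and Smad2_KO2 52.9, 39.8, 64.0 and 58.0 (-0.67 ± 0.16 and -0.65 ± 0.16, adjusted p 0.00308 and 0.00403). Knockout and WT libraries did not overlap at the second site, and at the first 1 knockout library exceeded the lowest WT library. Both calls were lost only when WT replicates 1 and 2 were left out together (fold changes -0.53 and -0.51, adjusted p 0.0626 and 0.0627). The Ctrl match of the first site held 34.9 to 70.5 in WT and 34.6 to 48.7 in the knockout libraries and was not called (adjusted p 0.301 and 0.19). In Ctrl the matching interval at the second site held 69.4 to 84.1 in WT and 41.3 to 65.8 in the knockout libraries, again with no overlap, and Smad2_KO2 passed (-0.47 ± 0.15, adjusted p 0.0347) while Smad2_KO1 did not (-0.43 ± 0.15, adjusted p 0.0549). The strongest interval inside Tfap2c (chr2:172550501-172550701 in Paused) held 435, 321, 323 and 393 in WT and 280 to 324 in the knockout libraries, with Smad2_KO2 passing (-0.26 ± 0.09, adjusted p 0.036) and Smad2_KO1 not (-0.23 ± 0.09, adjusted p 0.0638). With size factors both clones passed there, at a mean fold change of -0.35 and adjusted p of at most 0.0139.

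Elf5 encodes an ETS family factor of trophoblast stem cells. The lowest fold changes among the members in both tables, as the mean of the clones, were at an interval 11.2 kb before its first start (chr2:103400786-103400986 in Ctrl, 103400821-103401021 in Paused). In Ctrl it held 36.3, 32.2, 69.0 and 75.5 in WT, 22.2, 25.7, 24.4 and 30.0 in Smad2_KO1 and 19.0, 24.6, 21.2 and 36.2 in Smad2_KO2. In Paused it held 33.5, 26.8, 73.4 and 96.7 in WT, 15.2, 19.9, 19.0 and 17.9 in Smad2_KO1 and 24.0, 20.2, 24.7 and 20.8 in Smad2_KO2. WT replicates 3 and 4 were higher than WT replicates 1 and 2 in both tables, and in Paused the knockout libraries lay below WT, while in Ctrl 1 knockout library exceeded the lowest WT library. Fold changes were -0.94 ± 0.22 and -0.99 ± 0.22 in Ctrl (adjusted p 0.00273 and 0.00169) and -1.44 ± 0.25 and -1.14 ± 0.25 in Paused (adjusted p 8.45e-05 and 0.00132). The call survived leaving out each library in turn, but not leaving out WT replicates 3 and 4 together, which gave mean fold changes of -0.44 (adjusted p 0.347) in Ctrl and -0.56 (adjusted p 0.301) in Paused. What set WT replicates 3 and 4 apart at this interval was not tested.

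Close to the first Elf5 start, at the interval whose edge is capitalised in the promoter printed above, the Paused knockout libraries were higher than WT. In Paused this interval (chr2:103411697-103411897) held 36.7, 32.2, 42.1 and 29.1 in WT, 55.1, 50.8, 57.0 and 43.7 in Smad2_KO1 and 45.9, 67.5, 51.6 and 53.6 in Smad2_KO2, with no overlap. The fold changes were 0.55 ± 0.16 and 0.63 ± 0.16 (adjusted p 0.015 and 0.00626). Leaving out Smad2_KO1 replicate 3 (adjusted p 0.0563) or using DESeq2 (adjusted p 0.145) ended the call. In Ctrl the matching interval held 28.5 to 40.6 in WT and 38.1 to 53.4 in the knockout libraries, with fold changes of 0.30 ± 0.17 and 0.23 ± 0.17 (adjusted p 0.266 and 0.428). The strongest Elf5 interval, inside the gene (chr2:103439814-103440014 in Ctrl), had WT means of 94.2 ± 13.4 in Ctrl and 134 ± 17.6 in Paused and was not called in either table.

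Gata2, a GATA factor that activates giant cell hormone genes, had higher intervals in its flanks on both sides and little difference at its start. An interval 17.4 kb before its first start (chr6:88176341-88176541 in Ctrl, 88176340-88176540 in Paused), inside the predicted gene Gm38708, held 9.61, 5.37, 12.1 and 16.2 in Ctrl WT and 16.2 to 29.9 in the Ctrl knockout libraries. In Paused it held 12.9, 4.29, 14.0 and 14.6 in WT, 26.6, 27.2, 19.9 and 31.8 in Smad2_KO1 and 26.0, 25.5, 31.4 and 13.1 in Smad2_KO2. The highest WT value was above the lowest knockout value in each table, and the fold changes were 1.09 ± 0.27 and 1.03 ± 0.27 in Ctrl (adjusted p 0.00461 and 0.00791) and 1.24 ± 0.28 and 1.06 ± 0.28 in Paused (adjusted p 0.00203 and 0.00743). The Paused call missed the threshold without WT replicate 2 (mean fold change 0.78, adjusted p 0.0504), and in Ctrl the call was lost with DESeq2 (adjusted p 0.0639). Without WT replicates 1 and 2 both were lost (mean fold changes 0.62 and 0.73, adjusted p 0.177 and 0.111).

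At the other side, 28 kb past the downstream start (chr6:88226564-88226764 in Ctrl, 88226615-88226815 in Paused), the Gata2 window held an interval of higher level. This interval lay 19.5 kb (Ctrl) and 19.6 kb (Paused) beyond the gene's end, near the edge of a window that also reaches the gene Dnajb8. In Ctrl it held 73.7, 65.4, 76.7 and 91.7 in WT, 123, 106, 105 and 98.2 in Smad2_KO1 and 103, 116, 104 and 98.6 in Smad2_KO2. In Paused it held 99.3, 84.8, 99.3 and 95.3 in WT, 138, 144, 140 and 131 in Smad2_KO1 and 137, 169, 113 and 118 in Smad2_KO2. The knockout libraries lay above WT in both tables. Fold changes were 0.49 ± 0.13 and 0.46 ± 0.13 in Ctrl (adjusted p 0.00758 and 0.0136) and 0.54 ± 0.12 and 0.48 ± 0.12 in Paused (adjusted p 0.00124 and 0.00363). The Paused call was not lost under any alternative run, and the Ctrl call was lost without WT replicate 2 or Smad2_KO2 replicate 2 (adjusted p up to 0.0583), without WT replicates 1 and 2, with DESeq2, or with scaling per chromosome. A weak interval 19.0 kb past the start was called in Ctrl (WT 6.57 to 9.71, knockout 12.3 to 20.1), and in Paused its match missed the threshold in both clones (adjusted p 0.0551 and 0.0556). In Ctrl no WT library reached 10 there, so the knockout libraries alone carried the interval through the filter on low values. That Ctrl call was lost without WT replicate 3 or Smad2_KO1 replicate 1, 3 or 4 (adjusted p up to 0.0789). Another weak interval, 8.9 kb before the first start, was called in Paused (WT 9.71 to 16.1, knockout 14.9 to 30.8, fold changes 0.79 ± 0.26 and 0.81 ± 0.26, adjusted p 0.0248 and 0.0226), and it was lost without WT replicate 1 or 3, or replicate 1 or 2 of either clone (adjusted p up to 0.138). Intervals on chromosome 6, which carries Gata2 and Tead4, had a median fold change of 0.13 in Ctrl and 0.17 in Paused over the whole chromosome, the highest of the 5 chromosomes with members. TMM scaling per chromosome left 1 member called higher in Ctrl, beside 5 with TMM over all chromosomes together. It ended the Ctrl calls 19.0 and 28 kb past the start (limma, adjusted p 0.0621 and 0.0596). The Paused call 8.9 kb before the first start was lost too (adjusted p 0.0673), as were Tead4 calls given above. The chromosome's part in these results was not tested further.

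At the Gata2 start itself, the interval capitalised in the printed promoter (chr6:88198556-88198756 in Ctrl, where the predicted gene Gm38708 also starts) held 191, 155, 135 and 205 in WT and 129 to 189 in the knockout libraries. In Paused it held 219, 172, 158 and 260 in WT and 172 to 213 in the knockout libraries, so the groups overlapped in both tables, with fold changes from -0.18 to -0.02 and adjusted p from 0.349 to 0.929. The strongest Gata2 interval, 4.2 kb before the first start, had means of 344 ± 46.0 in Ctrl WT, 359 ± 49.9 in Smad2_KO1 and 356 in Smad2_KO2, and 439 ± 45.5, 410 ± 28.7 and 402 ± 23.4 in Paused. It was not called in either table.

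**Figure D2:**
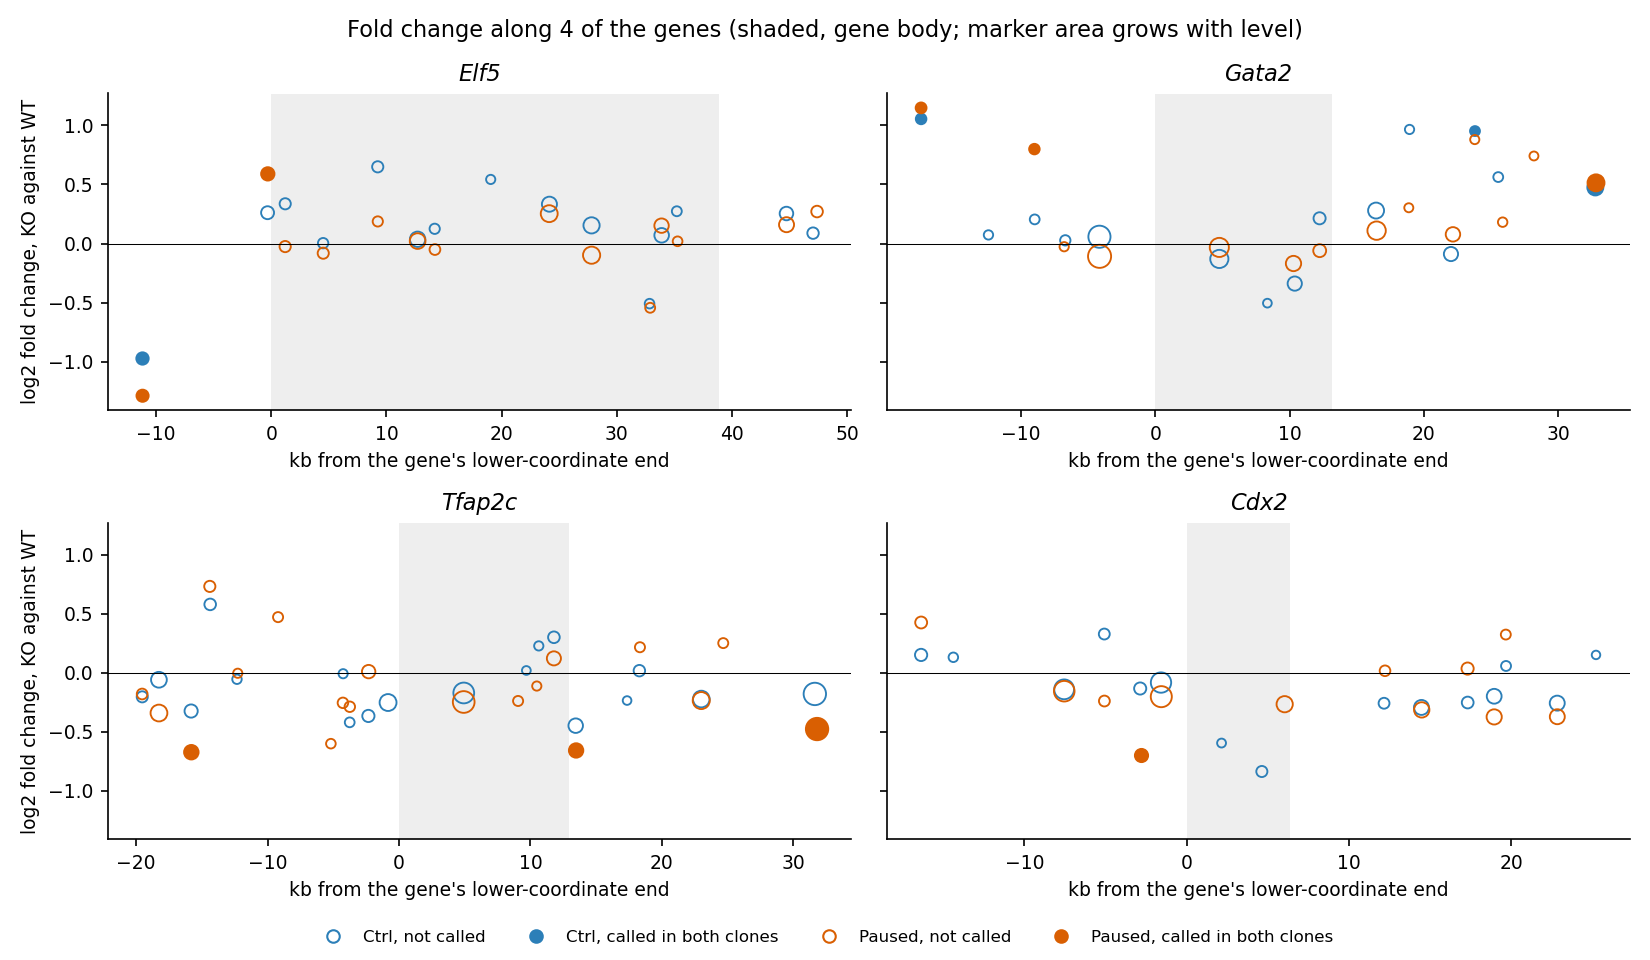
Log2 fold change of Smad2 knockout against WT (vertical axis, mean of both clones) is plotted against the distance in kb from the gene's lower-coordinate end (horizontal axis) for Elf5, Gata2, Tfap2c and Cdx2. Blue marks Ctrl and orange Paused, gene bodies are shaded, marker area grows with the interval's level, and filled markers were called in both clones. The called Gata2 intervals lie in both flanks, and the lowest Elf5 interval lies 11.2 kb before the first start.

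**Figure D3:**
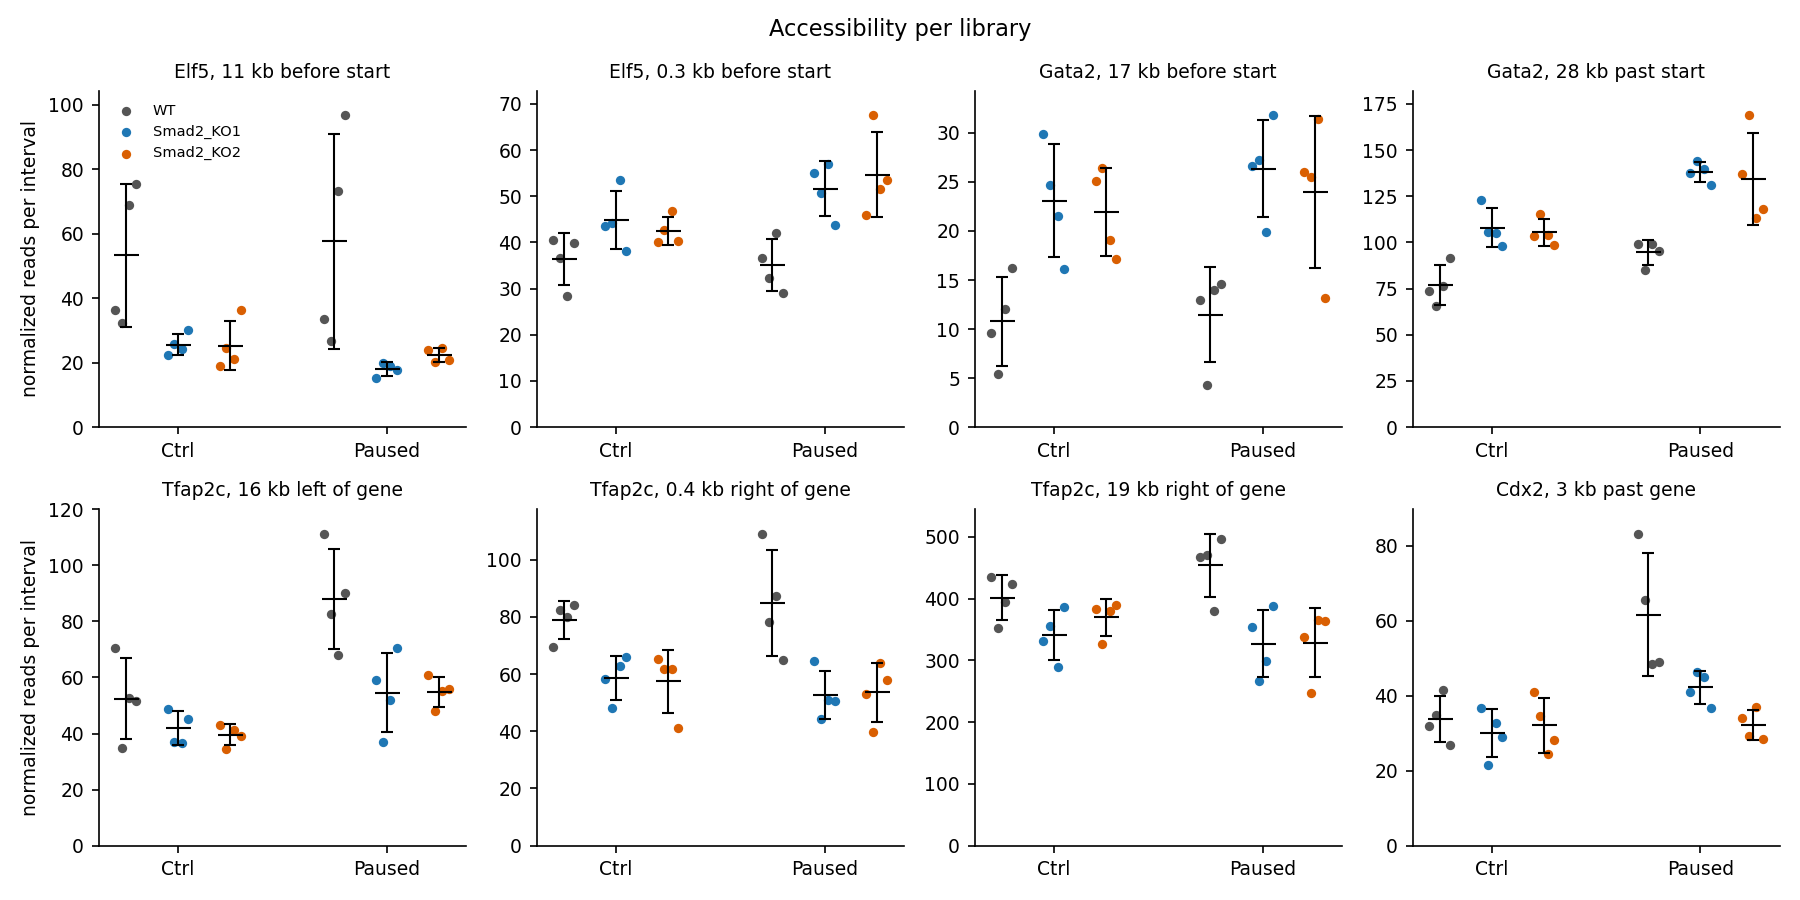
Normalized reads per interval (vertical axis) are shown for each library at 8 sites, with Ctrl left and Paused right in each panel, points for libraries, bars for mean and SD, and WT, Smad2_KO1 and Smad2_KO2 from left to right. At the Elf5 site 11.2 kb before the start, WT splits into a lower and a higher pair (26.8 and 33.5 against 73.4 and 96.7 in Paused). At the Gata2 site 28 kb past the start the knockout libraries lie above WT in both tables.

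Hand1, a basic helix-loop-helix factor of giant cells, had no called interval. Its strongest interval (chr11:57820100-57820300 in Ctrl, 57820098-57820298 in Paused), 8.4 kb before the lower-coordinate end, held 112 to 135 in WT and 103 to 138 in the knockout libraries in Ctrl. Paused libraries held 136, 134, 131 and 130 in WT, 119, 123, 111 and 110 in Smad2_KO1 and 102, 117, 117 and 107 in Smad2_KO2. These groups did not overlap, but neither clone passed (-0.19 ± 0.11, adjusted p 0.209, and -0.26 ± 0.11, adjusted p 0.0855), and size factors brought both past the threshold (mean fold change -0.33, adjusted p of at most 0.0438). The interval at its higher-coordinate end, where the predicted gene Gm32915 also starts, had means of 69.2 ± 15.3, 54.3 ± 5.84 and 57.6 ± 11.5 in Ctrl and 111 ± 15.8, 102 ± 2.31 and 106 ± 13.5 in Paused (WT, Smad2_KO1 and Smad2_KO2), and neither clone passed. Ascl2, an imprinted basic helix-loop-helix gene of the spongiotrophoblast, had its strongest Ctrl interval over the promoter printed above (chr7:142969270-142969470). That interval held 214, 170, 162 and 204 in WT, 215, 174, 237 and 208 in Smad2_KO1 and 216, 214, 210 and 216 in Smad2_KO2, and the groups overlapped (0.15 ± 0.11 and 0.20 ± 0.11, adjusted p 0.365 and 0.224). In Paused the nearest interval lay inside the gene, 276 bases from the start (chr7:142968788-142968988), and held 52.9 to 88.7 in WT and 58.4 to 85.5 in the knockout libraries, with no difference that passed (adjusted p 0.785 and 0.752). The strongest Paused interval at Ascl2, 16.9 kb beyond the gene's end (chr7:142949699-142949899), held 145 to 195 in WT and 160 to 194 in the knockout libraries and was not called (adjusted p 0.492 and 0.853).

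The strongest interval of each window ordered the genes by WT level. For Tfap2c this interval lay 18.6 kb (Ctrl) and 18.8 kb (Paused) beyond the gene, at the start of the predicted gene Gm36038. The strongest interval inside Tfap2c had WT means of 297 in Ctrl and 368 in Paused, below those given here for Gata2. In Ctrl the order was Gata3 (438 ± 21.1 normalized reads, SD, n = 4), Tfap2c (402 ± 36.9), Gata2 (344 ± 46.0), Cdx2 (261 ± 15.1), Tead4 (231 ± 35.0), Ascl2 (187 ± 25.1), Hand1 (120 ± 10.1) and Elf5 (94.2 ± 13.4). The 4 WT values of neighbours in that order overlapped except between Gata2 and Cdx2 and between Ascl2 and Hand1. In Paused it was Gata3 (514 ± 53.4), Tfap2c (454 ± 51.0), Gata2 (439 ± 45.5), Tead4 (329 ± 82.8), Cdx2 (317 ± 16.4), Ascl2 (172 ± 22.9), Elf5 (134 ± 17.6) and Hand1 (133 ± 2.96), and there neighbours overlapped except Cdx2 and Ascl2. The 2 tables were normalized separately and hold different intervals, so the levels stand side by side and no test of Paused against Ctrl was made.

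**Figure D4:**
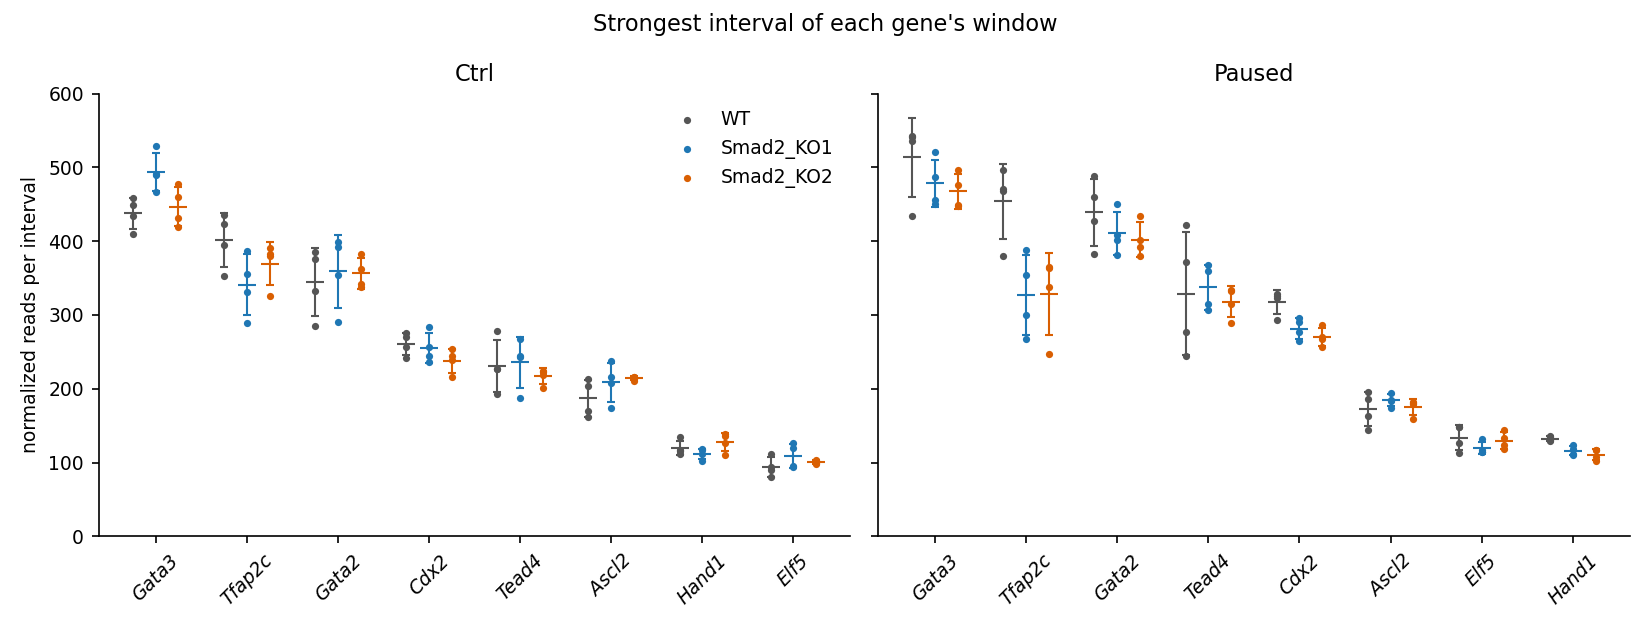
Normalized reads at the strongest interval of each gene's window (vertical axis) are plotted by gene in order of the WT mean (horizontal axis), with points for libraries, bars for mean and SD, and colours for the 3 lines. Gata3 is highest in both tables (438 and 514 in WT). The Tfap2c interval lies outside that gene, at the start of the predicted gene Gm36038. Its fall in the Paused knockout libraries is the one called in both clones.

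Of the members, 112 intervals matched one to one between the tables (overlap of at least 50% of the width), 110 of them tested in both, and 41 Ctrl and 36 Paused members had no match. Among the matched pairs 6 were called in Ctrl and 11 in Paused, and 3 were called in both with the same sign, the Elf5 interval 11.2 kb before the start and the Gata2 intervals 17.4 kb before and 28 kb past it. No matched pair was called with opposite signs. Knockout libraries lay entirely on one side of WT at 13 Ctrl members (8.72%, beside 7.48% of all intervals) and at 12 Paused members (8.33%, beside 11.5%). In Ctrl 11 of these were above WT (beside 4.16% of all) and 2 below (beside 3.32%), and in Paused 6 were above (beside 7.25%) and 6 below (beside 4.2%).

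Median fold changes fell with the level of the interval, among the members as among all intervals. Members with a mean below 20 normalized reads had a median log2 fold change of 0.26 in Ctrl and 0.28 in Paused, beside 0.19 and 0.29 for all intervals of that level. Members above 100 had medians of -0.01 and -0.10, beside -0.07 and -0.13. Of the higher calls 4 of 6 in Ctrl and 4 of 9 in Paused came from the lowest class, and no lower call did. At each of these weak higher calls fewer than 4 WT libraries reached 10, so knockout libraries were needed to pass the filter. With 8 knockout and 4 WT libraries, the filter admits weak intervals more readily where the knockouts are higher. The split of calls in this class therefore cannot be read as a result. Of all intervals in that class 2.79% were called higher and 1.5% lower in Ctrl, and 8.16% and 1.43% in Paused, and the members in it numbered 57 in each table. The Paused call at the strongest Tfap2c interval was 1 of 24 members above 100, in a class where 16.0% of all intervals were called lower.

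**Figure D5:**
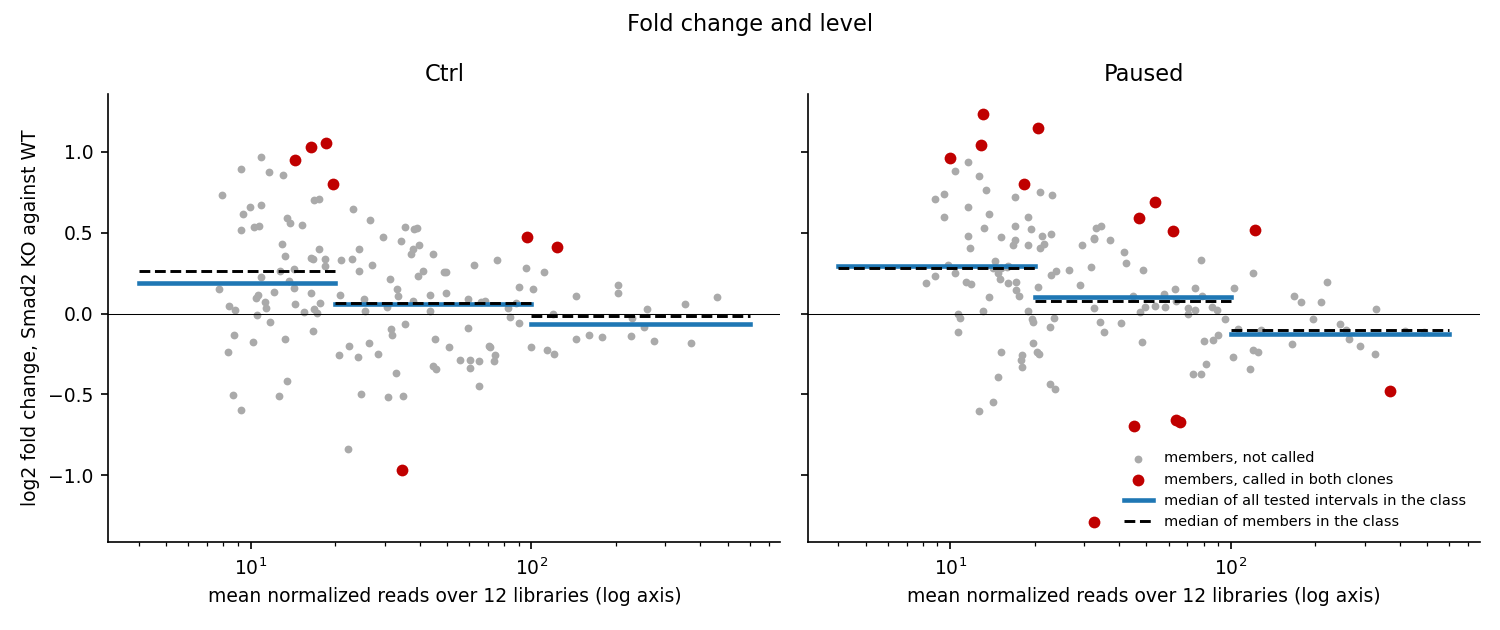
Log2 fold change of Smad2 knockout against WT (vertical axis) is plotted against the mean normalized reads over the 12 libraries of a table (horizontal axis, log scale) for each tested member, red where called in both clones. Blue lines are medians of all tested intervals below 20, from 20 to 100 and above 100, and dashed lines are medians of the members in the same classes. Both sets of lines fall from left to right.

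Other genes of the lineage and of the pathway above Cdx2 were read the same way. Of 26 other trophoblast genes 22 had intervals, and 21 of their 387 tested intervals were called higher and 20 lower in Ctrl (10.6% in all), and 28 and 28 of 374 in Paused (15.0%). Their medians were 0.03 and 0.06, beside 0.08 and 0.12 for all intervals. At Cdh3, which encodes placental cadherin, the strongest interval in or within 1000 bases of the gene was called lower in both clones in Ctrl (-0.34 and -0.34) and in Paused (-0.64 and -0.61). At Eomes, which maintains trophoblast stem cells with Cdx2 and Elf5, 0 intervals were higher and 2 lower of 14 in Ctrl, and 0 and 1 of 13 in Paused. For 17 Hippo and YAP genes 10 of 487 intervals were higher and 20 lower in Ctrl (6.16%), and 29 and 25 of 428 in Paused (12.6%). This list also holds Tead1, Tead2 and Tead3, which are relatives of Tead4 and do not act above it. Tead3 had 2 lower intervals of 21 in Ctrl and 4 of 15 in Paused, with fold changes at its strongest interval in or near the gene of -0.53 and -0.43 in Ctrl and -0.44 and -0.32 in Paused. Other genes of these lists went the other way: the strongest interval at Peg10, an imprinted placental gene, was higher in Ctrl (0.34 and 0.36, adjusted p 0.018 and 0.0136), Dlx3 and Arid3a each had 3 higher and 0 lower intervals in Ctrl, and in Paused the YAP competitor gene Vgll4 had 6 higher and 0 lower and the Hippo kinase gene Stk3 5 higher and 1 lower. These examples were chosen after their values were seen. At the 7 pluripotency genes 5 of 126 intervals were called higher and 3 lower in Ctrl (6.35%, beside 7.15% of all intervals), and 10 and 5 of 121 in Paused (12.4%, beside 13.9%). Esrrb is in both this list and the list of other trophoblast genes, and 4 of its 47 Ctrl intervals were higher and 1 lower. The neural genes had 0 higher and 4 lower of 26 in Ctrl (15.4%) and 0 and 3 of 27 in Paused (11.1%), the fibroblast genes 2 and 4 of 47 (12.8%) and 3 and 4 of 41 (17.1%), and the primitive endoderm genes 0 and 3 of 56 (5.36%) and 3 and 5 of 59 (13.6%), and the part of any shift in cell type in the members' results was not tested.

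The authors' deposited tables, which pool both clones against WT, list 36574 of 299780 Ctrl intervals (12.2%) and 58821 of 272268 Paused intervals (21.6%) at a false discovery rate under 0.05. Among the members the authors' deposited tables list 13 higher and 4 lower in Ctrl and 15 higher and 10 lower in Paused. The start interval with the highest level in Ctrl was that of Ascl2, and over the 12 libraries the start intervals of Brpf1 (Pearson's r 0.95), Tlk1 (0.95) and Prrg4 (0.92) followed it most closely among 9571. For the Paused Gata2 start these were Cmtm7 (0.96), Ppp2r5c (0.95) and Plxnc1 (0.94) among 9803. The libraries in these correlations share lines and depth, and no p-value is given.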

How the data were processed

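ATAC-seq libraries of E14 mouse embryonic stem cells (WT, Smad2_KO1 and Smad2_KO2, Ctrl or Paused, 4 libraries a group, numbered as labelled) were read from 2 deposited tables, normalized separately and holding different intervals. The signal values are the authors' normalized reads per interval. The submitters' processing notes name FastQC, Trim Galore, Bowtie2 2.4.1, MACS3 3.0.3 and DiffBind 3.16.0 on mm10, without settings, and whether reads were shifted for Tn5 is not given in the sources used here. Each value was a whole number of reads divided by 1 factor per library (within 0.1 of whole), and these reads, 11456986 to 20007829 per library, were recovered for count tests. The log2 fold changes and the p-values with FDR in the authors' deposited tables compare both clones with WT. Here limma 3.58.1 (R 4.3.3, trended variance) was fitted to log2(value + 1) on all intervals with 10 or more normalized reads in at least 4 libraries, with Benjamini-Hochberg adjustment over all of them. Calls need an adjusted p under 0.05 in both clones with the same sign. edgeR 4.0.16 and DESeq2 1.42.0 on the recovered reads were alternatives. On simulated data with the Ctrl levels, 45 of 100 intervals changed by 1 on the log2 scale and 80 of 100 changed by 2 were called, with 1 false call, and 47 and 87 with 0 false calls for Paused. The simulated libraries were independent, with 1 spread for all lines and intervals and no shift with level. The data differ in each of these, so these rates need not carry over. Named per gene and table were the interval at the start (within 500 bases, or for genes with no start given the strongest in or within 1000 bases of the gene), the strongest, and up to 3 called. The members and lists were chosen with earlier results of these data known. Gene positions, starts and promoters came from RefSeq (GRCm38.p6).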

Additional observations from a re-analysis of the deposited data

Results flagged for a closer look

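In 4 of the 141 groups of 4 libraries searched (values at the 19 Ctrl and 26 Paused named intervals for 3 lines, and the read totals of the 6 groups), 1 library stood apart from the other 3 by a larger share of the group's range than Dixon's 95% limit allows, and chance gives about 7.0. All 4 were in Paused, and 3 were WT replicate 2. At the strongest Cdx2 interval WT replicate 2 held 293.04 normalized reads, against 322.59 to 328.16 in the other WT libraries. At the Gata3 interval before the matched start it held 433.65, against 536.21 to 542.97. At the Gata2 interval 17.4 kb before the first start it held 4.29, against 12.95 to 14.57, and without that library the call there missed the threshold (limma, adjusted p 0.0504). At the strongest Ascl2 interval Smad2_KO2 replicate 4 held 159.72, against 178.78 to 181.48 in the other Smad2_KO2 libraries.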

How the results depend on the processing

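No named interval that was called changed sign under any alternative run. The 7 Ctrl and 14 Paused members called became 3 and 7 with a flank of 5 kb, 5 and 12 with intervals whose nearest gene is the member, 18 and 25 with clone libraries averaged per number, and 23 and 34 with the 8 knockout libraries as 1 group. With other scalings they were 8 and 18 (DESeq2 size factors), 8 and 16 (TMM), 8 and 17 (library totals), 6 and 11 (loess), and 4 and 15 (TMM per chromosome, chosen after seeing the data, 1 higher and 3 lower in Ctrl). DESeq2 called 1 and 10, and edgeR 7 and 16. Calls over all intervals changed with these settings too. In Paused they went from 23477 higher and 12816 lower to 15653 and 22542 with size factors. DESeq2 gave 6220 and 16949 there, and in Ctrl 2599 and 8851, beside 11132 and 9027 in the main fit. With 1 group of 8 the members' shares were 15.4% and 23.6%, beside 17.6% and 28.7% of all. Without WT replicates 3 and 4 there were 3 in Ctrl, and without WT replicates 1 and 2 there were 9 in Paused. Leaving out 1 library at a time gave 4 to 7 in Ctrl and 9 to 17 in Paused. No member passed between the clones under any setting that keeps them apart, which the averaged libraries and the single group of 8 do not. Of the named intervals, 12 of 19 in Ctrl and 10 of 26 in Paused kept their side of the threshold throughout. Where they did not, the cause was not tested beyond the fewer libraries some settings hold. Correlations between libraries were taken on deviations from each line's own mean at each interval, not on the values themselves. For same-numbered libraries of different lines the mean correlations of these deviations were 0.01 to 0.05 in Ctrl and 0.01 to 0.11 in Paused. Single same-numbered pairs exceeded 0.1 only between the clones, at number 4 in Ctrl (0.109) and numbers 2 and 4 in Paused (0.187 and 0.111). The numbers were not taken as pairs in the main test. However, by these deviations 7 of 8 Paused and 3 of 8 Ctrl knockout libraries correlated best with their own number in the other clone. With the replicate block 9 and 20 members were called.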
